A study of Mus musculus with 24 samples.

Results

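The genes Tgfb1, Tgfb2, Tgfb3, Inhba, Inhbb, Gdf11, Ltbp1, Ltbp3 and Ltbp4 encode ligands of the TGF-beta and activin branch of the TGF-beta superfamily and the latent binding proteins that hold TGF-beta in the matrix. They were taken by gene symbol from the array annotation, with 1 probe set per gene, that of the highest mean over the 24 arrays. These are 9 of 18193 annotated genes, and all 9 were among the 14879 genes that passed the filter on low values. RNA came from mouse embryos (labelled strain C57B6) at embryonic day 12.5 and was read on single-colour expression arrays as log2 signal. The cross was of Wnt1cre;Tgfbr2fl/+ with Tgfbr2fl/fl animals, in which Cre deletes the floxed receptor gene. Embryos with cleft palate and a calvarial defect were taken as mutants and are labelled knockout, and littermates served as controls, whose own alleles the sources used here do not give. Both the distal and the proximal end of the mandible and of the maxilla were profiled in each genotype, which gives 8 groups of 3 arrays.

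TGF-beta is secreted as a latent complex in which the mature dimer stays wrapped in its own propeptide. That complex is bound covalently by a latent TGF-beta binding protein (LTBP), which anchors it to fibrillin and fibronectin in the matrix until integrins, thrombospondin or proteases release the ligand. Mature TGF-beta binds the type II receptor encoded by Tgfbr2, whereas activins and GDF11 use the activin type II receptors, and both routes lead to SMAD2 and SMAD3. Wnt1-Cre marks the cranial neural crest and its descendants, which form most of the facial mesenchyme, so muscle, epithelium, endothelium and blood of the jaws keep the receptor gene.

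The targeted gene, Tgfbr2, showed no lower level under the knockout label. Its log2 signal ran from 11.28 to 12.16 (median 11.76) in the 12 control arrays and from 11.3 to 12.68 (median 12.19) in the 12 arrays labelled knockout, and the mean difference over the 4 regions was 0.34 (SE 0.11, limma adjusted p = 0.112). The sources used here do not say whether its probe set lies inside the deleted part, so every direction below is that of the labels. The mesenchyme markers Twist1, Prrx1, Prrx2 and Pdgfra read at least 11.11 on every array. The lowest values of the other measured ones, Msx1, Msx2 and Alx4, were 10.32, 8.48 and 6.21. As a group mean, the deviation of this list from its 24-array means ran from -0.49 (proximal maxilla labelled knockout) to 0.59 (control distal mandible). All 5 mandibular arch markers were higher in the mandible than in the maxilla as a mean of the 4 jaw comparisons. Over all genes tested, 7 arrays correlated more with the other end of their jaw than with their own group, among them array 1 of both ends of the control maxilla and of both ends of the mandible labelled knockout. The 4 control arrays numbered 2 carried Y-linked signal (Eif2s3y at least 10.2, against at most 3.88 elsewhere). The main values below are also given without these arrays. Nothing in the labels ties the 3 arrays of a group to 3 different embryos, and p-values therefore measure only the spread between arrays, which may be technical. In such bulk tissue, fewer cells of a type and less RNA per cell cannot be told apart.

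Upstream sequences are shown for Inhbb and Ltbp1, since these were the members that differed between the jaws. They are the 250 bases before each RefSeq start site on GRCm38.p6, written 5′ to 3′ on the gene's strand. Capitals mark E-boxes (CANNTG, the core bound by myogenic and Twist factors) and the cyclic AMP response element (TGACGTCA). These motifs and the Smad motif CAGAC were searched on both strands, and they were chosen with the array values known. The CAGAC matches are not in capitals.
Inhbb, chr1:119422249-119422498, minus strand: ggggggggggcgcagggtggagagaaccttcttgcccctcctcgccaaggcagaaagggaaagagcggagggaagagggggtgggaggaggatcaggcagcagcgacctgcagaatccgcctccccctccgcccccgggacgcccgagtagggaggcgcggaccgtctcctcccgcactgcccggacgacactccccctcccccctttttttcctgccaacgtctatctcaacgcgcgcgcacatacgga
Ltbp1, first start, chr17:75005279-75005528, plus strand: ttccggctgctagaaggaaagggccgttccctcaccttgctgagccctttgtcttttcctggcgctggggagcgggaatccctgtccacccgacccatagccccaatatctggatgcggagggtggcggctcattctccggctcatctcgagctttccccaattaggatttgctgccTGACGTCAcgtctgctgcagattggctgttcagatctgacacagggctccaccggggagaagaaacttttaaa
Ltbp1, second start, chr17:75178531-75178780, plus strand: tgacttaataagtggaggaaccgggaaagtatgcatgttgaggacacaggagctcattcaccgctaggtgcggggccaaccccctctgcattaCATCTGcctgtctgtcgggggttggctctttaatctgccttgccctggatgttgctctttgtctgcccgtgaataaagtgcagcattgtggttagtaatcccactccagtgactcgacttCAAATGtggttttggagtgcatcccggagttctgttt
The Inhbb window, with 68% G and C, held no match to any of the motifs. The first Ltbp1 window held 1 response element that begins 73 bases before the start, followed 64 bases before it by 1 CAGAC match. The second Ltbp1 window held 2 E-boxes, which begin 157 and 37 bases before the start, and 2 CAGAC matches. Of the 32851 promoter windows of this length, 66.2% held an E-box, 42.2% a CAGAC match and 1.5% the response element. An entry was found for 8 of the 9 members. A match is a description of letters and not of a bound site.

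Tgfb1, Tgfb2 and Tgfb3 were well above background on all 24 arrays, with background taken here as the 30th percentile of an array (5.85 to 5.93). Tgfb1, the isoform named for its transforming activity in culture and later known for immune regulation, lay between 7.39 and 8.84. Its arrays labelled knockout spread widely in the distal maxilla, at 8.84, 8.21 and 7.49, while the matching control arrays read 7.72, 7.72 and 7.6. The control proximal maxilla was also tight, at 8.04 ± 0.07 (SD, n = 3). Of the variance of Tgfb1, 25.5% lay between the 8 groups, so most of its spread was between arrays of the same group. The median was 49.4% over all 18193 annotated genes, without the filter on low values.

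Tgfb2, the isoform whose loss in mice gives cleft palate and heart and jaw defects, was lowest in the control distal mandible. Its control arrays there read 11.57, 11.97 and 11.47, and the control proximal mandible read 12.1, 12.08 and 12.18. In the distal mandible the arrays labelled knockout read 12.37, 12.23 and 11.77, and in the proximal mandible 12.14, 12.08 and 12.03. The control arrays of the distal mandible thus lay below those of the proximal mandible, while in the arrays labelled knockout the ends overlapped. In the maxilla the control arrays read 12.37, 11.96 and 11.84 distally and 12.18, 12.25 and 12.27 proximally. Those labelled knockout read 12.21, 12 and 12.36 distally and 11.81, 11.97 and 12.12 proximally, and the proximal set lay wholly below its controls.

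Tgfb3, the isoform of the palatal edge epithelium whose loss prevents palatal fusion, had its highest and its lowest group mean at a proximal and a distal end. Control arrays read 9.78, 10.17 and 9.55 in the distal and 10.51, 10.43 and 10.15 in the proximal mandible. In the control maxilla they read 10.45, 9.91 and 9.66 distally and 9.99, 10.37 and 10.26 proximally. Array 1 of the distal and array 1 of the proximal control maxilla were each out of step with the other arrays of their end. Among arrays labelled knockout, the mandible read 10.56, 10.08 and 9.89 distally and 10.43, 10.44 and 10.37 proximally, and the maxilla 10.44, 9.99 and 9.65 distally and 10.75, 10.33 and 10.4 proximally. The highest group mean was that of the proximal maxilla labelled knockout (10.49 ± 0.23, SD, n = 3) and the lowest that of the control distal mandible (9.83 ± 0.31).

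Inhba encodes the beta A subunit, whose dimer is activin A, and its loss in mice leaves incisors and lower molars unformed. It was high and almost constant in the control distal mandible, at 10.16, 10.15 and 10.16, and low in the control proximal mandible, at 9.47, 9.12 and 9.31. The control maxilla read 9.48, 10.49 and 10.22 distally and 10.75, 9.81 and 10.08 proximally. Every control array of the proximal mandible was below every control array of the proximal maxilla. Among the arrays labelled knockout, the mandible read 9.31, 9.85 and 9.95 distally and 10.18, 8.8 and 9.39 proximally, and the maxilla 10.12, 10.51 and 10.04 distally and 9.33, 9.32 and 10.56 proximally. Arrays 1 and 2 of that last group were well below its array 3.

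Inhbb encodes the beta B subunit, which forms activin B and, paired with beta A, activin AB. It had the widest range of the members, from 5.46 to 8.45, and lay above background on 21 of 24 arrays. In the control mandible it read 7.35, 7.58 and 5.46 distally and 7.47, 7.48 and 7.92 proximally. In the control maxilla it read 6.82, 5.93 and 5.82 distally and 5.72, 6.15 and 6.32 proximally. The proximal mandible was clear of the proximal maxilla in controls, while the distal ends overlapped through the low array 3 of the mandible. Among the arrays labelled knockout, the mandible read 8.45, 7.43 and 7.43 distally and 7.83, 8.41 and 7.97 proximally. The maxilla labelled knockout read 7.1, 6.47 and 5.85 distally and 8.15, 7.67 and 6.82 proximally, and the proximal set lay wholly above its controls.

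Gdf11, a ligand known for axial patterning and close to myostatin in sequence, varied least, from 6.62 to 7.23 over the 24 arrays. Its group means ran from 6.84 ± 0.20 (SD, n = 3) in the control distal mandible to 7.07 ± 0.15 in the proximal maxilla labelled knockout.

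**Figure D1:**
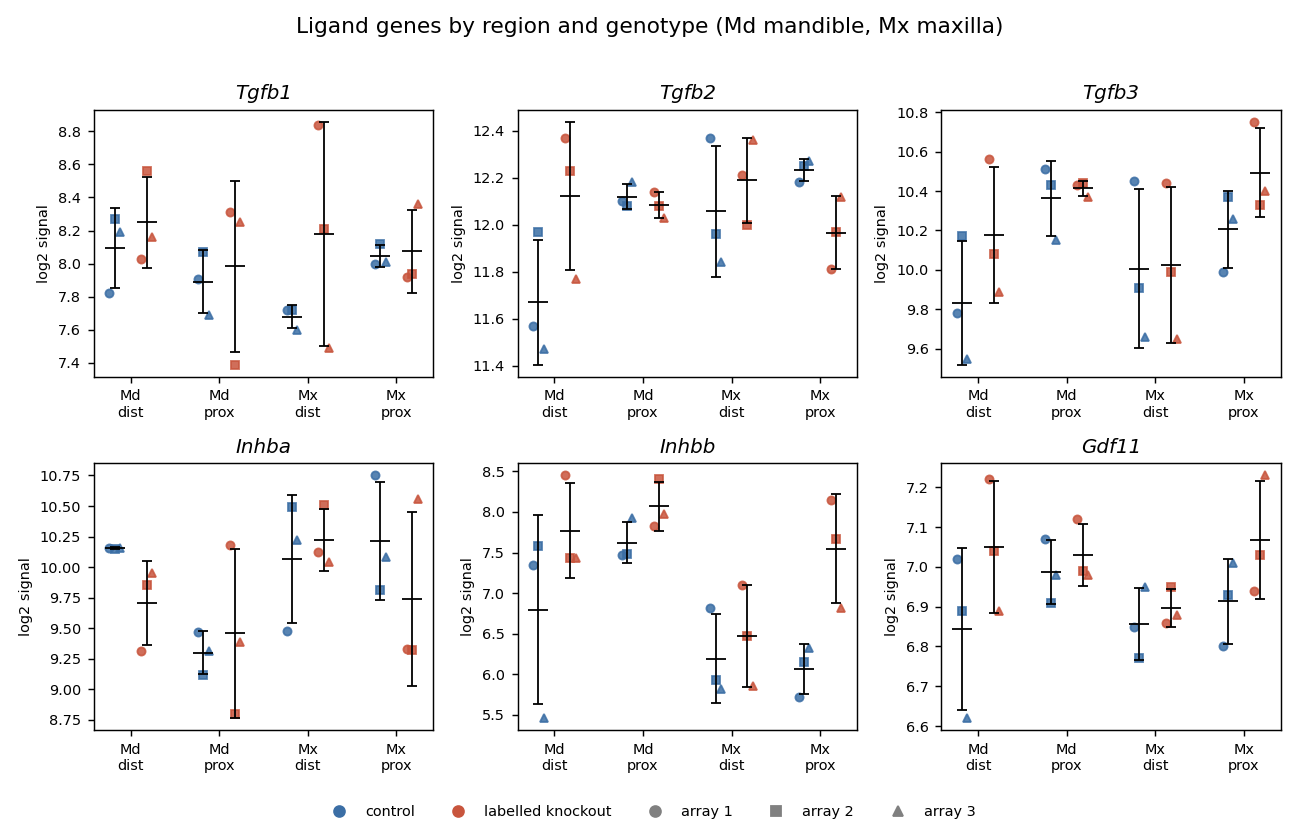
Log2 signal of the 6 ligand genes (vertical axes, each with its own range) on every array, by region and genotype, with the group mean and SD of 3 arrays as black bars. Inhbb spans 5.46 to 8.45 with the mandible mostly high, whereas Gdf11 stays between 6.62 and 7.23.

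Ltbp1, the widely expressed binding protein of the latent complex, was highest in the control distal mandible, where it read 11.8, 11.74 and 11.4. In the control proximal mandible it read 11.32, 11.24 and 11.31, and in the control maxilla 11.19, 11.19 and 10.95 distally and 11.04, 11.22 and 10.98 proximally. All 6 control arrays of the mandible were above the control arrays of the maxilla at the same end. Among arrays labelled knockout, the mandible read 11.38, 11.39 and 11.46 distally and 11.55, 11.27 and 11.16 proximally. The maxilla labelled knockout read 11.43, 11.33 and 10.89 distally and 10.97, 10.74 and 11.13 proximally, so the jaws were clear of each other at the proximal end and overlapped at the distal end.

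Ltbp3, known for its part in skeletal growth and tooth enamel, lay between 10.57 and 11.57. Its array number 1 was above the mean of its group in 8 of 8 groups and number 2 below it in 8 of 8. That pattern was shared by 19 of 14879 genes (0.128%) and by no other member. The deviations averaged 0.2 for number 1, with a range of 0.06 to 0.44, and -0.22 for number 2.

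Ltbp4, which is needed for elastic fibre assembly and binds TGF-beta 1 among the ligands, was lowest in the control distal mandible at 8.54, 8.72 and 8.31. In the control proximal mandible it read 9.27, 9.36 and 8.97, and in the control maxilla 8.75, 9.16 and 9.12 distally and 9.21, 9.14 and 9.09 proximally. The control distal mandible lay below each of these groups with no overlap. Among arrays labelled knockout, the mandible read 9.79, 9.21 and 8.94 distally and 9.26, 9.29 and 9.31 proximally, and the maxilla 9.89, 9.16 and 9.13 distally and 9.38, 8.83 and 9.22 proximally. With the 8 groups of a gene put in order of their means, neighbouring groups overlapped for every member, except for this lowest Ltbp4 group (8.53 ± 0.21, SD, n = 3) and the one above it.

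**Figure D2:**
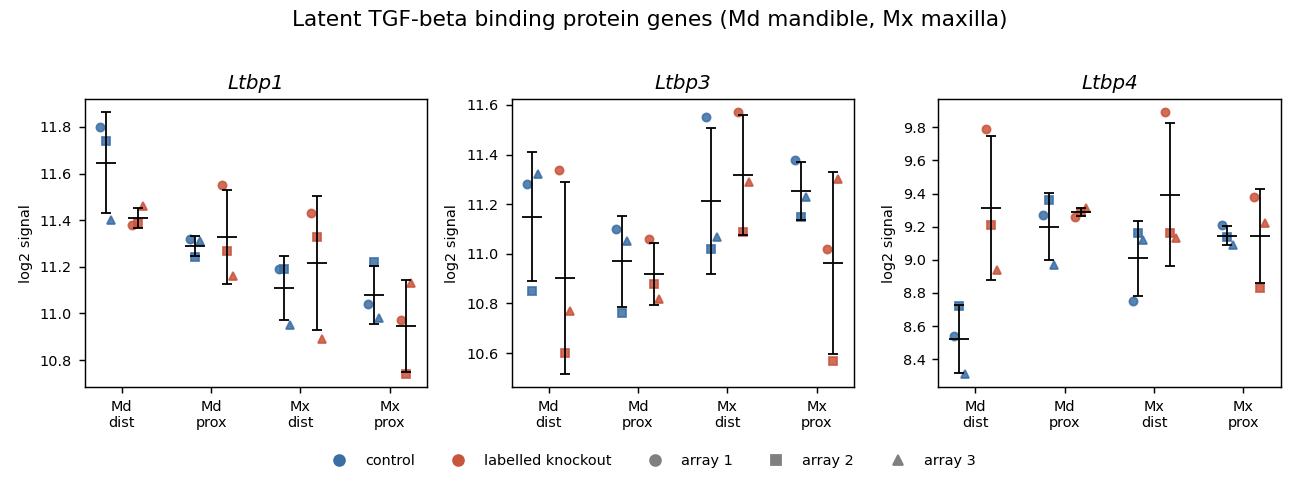
Log2 signal of Ltbp1, Ltbp3 and Ltbp4 (vertical axes, each with its own range) on every array, by region and genotype, with the group mean and SD of 3 arrays as black bars. The control distal mandible is the highest group of Ltbp1 (11.4 to 11.8) and the lowest of Ltbp4 (8.31 to 8.72), and array 1 of Ltbp3 sits above its group mean in every group.

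The first comparison asks whether the ligand and binding protein genes change when the receptor is deleted in the neural crest. No member passed as a mean over the 4 regions (0 of 9, with 0.47% of all genes tested passing an adjusted p of 0.05), and 6 of 9 had positive differences with a median of 0.11, against 0.01 for all genes. The largest was that of Inhbb, at 0.79 (SE 0.24, adjusted p = 0.0843), a 1.73-fold ratio of arrays labelled knockout to controls. The other Inhbb probe set gave only 0.12 (adjusted p = 0.162). Skeletal muscle markers had a median difference of 1.91 in the same comparison, with 15 of 15 positive and 0 passing, and their part in the Inhbb value was not tested. Ltbp4 gave 0.31 (SE 0.11, adjusted p = 0.106), and Gdf11 gave 0.11 (SE 0.051, adjusted p = 0.191). These 3 members had unadjusted p-values under 0.05, as had 23.2% of all genes tested. The intervals set bounds on the rest. The 95% confidence interval of the mean difference was -0.09 to 0.23 for Tgfb2, -0.06 to 0.41 for Tgfb3, -0.09 to 0.48 for Tgfb1, -0.2 to 0.09 for Ltbp1, -0.34 to 0.1 for Ltbp3 and -0.52 to 0.22 for Inhba.

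The Inhbb value rests partly on single arrays. It passed without array 2 of the control distal mandible (0.89) and without array 3 of the proximal maxilla labelled knockout, with adjusted p from 0.0213 to 0.165 over the 24 fits that each left out 1 array. The lowest value, 0.63, came without array 3 of the control distal mandible. Ltbp4 passed in 1 of these fits, that without array 3 of the distal mandible labelled knockout (0.36, adjusted p = 0.0471). Without the 7 arrays closer to the other end of their jaw, Inhbb gave 0.88 (adjusted p = 0.156), Ltbp4 0.2 (0.457) and Gdf11 0 (0.978). Without the 4 control arrays with Y-linked signal they gave 0.85 (adjusted p = 0.113), 0.38 (0.12) and 0.1 (0.355).

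Within single regions, none of 36 member tests passed. The share of all genes that passed was 0.134% in the distal mandible, 0.0538% in the proximal mandible, 0.0202% in the distal maxilla and 5.77% in the proximal maxilla. Unadjusted p-values under 0.05 were held by 2, 0, 0 and 1 members in that order, against 12.6%, 2.86%, 2.65% and 25.9% of all genes. In the distal maxilla all 9 members had positive differences, from 0.02 for Tgfb3 to 0.5 for Tgfb1. Neither there nor in the proximal mandible was a member free of overlap (6.9% and 9.45% of all genes). In the distal mandible the groups did not overlap for 2 of 9 members, against 14.5% of all genes. Ltbp4 gave 0.79, with all arrays labelled knockout above the controls (SE 0.21, adjusted p = 0.136), and Inhba gave -0.45 (SE 0.35, adjusted p = 0.622). The largest difference there was that of Inhbb, 0.97 (SE 0.48, adjusted p = 0.411), whose arrays overlapped. It was 0.3 without array 3 of the control distal mandible and 1.36 without array 2 of that group. The other Inhbb probe set gave 0.17 (adjusted p = 0.499). In this region skeletal muscle markers had a median difference of 2.83 (15 of 15 positive, 0 passing), glia markers 1.16 (5 of 5 positive, 1 passing) and mesenchyme markers -0.62 (1 of 7 positive, 0 passing), and their part in the members' values was not tested. Tgfb2, whose arrays overlapped there, gave 0.45 (SE 0.15, adjusted p = 0.227), and its 3 other probe sets gave 0.49 to 0.59, none of which passed. Without array 1 of the distal mandible labelled knockout, one of the arrays that stood apart, the Ltbp4 difference was 0.55 and that of Tgfb2 was 0.33. Without array 3 of that group both passed, at 0.98 (adjusted p = 0.0354) and 0.62 (adjusted p = 0.0444). Without all 7 such arrays, which leaves 1 array in that group whose spread is taken to be that of the other groups, they were 0.42 (adjusted p = 1) and 0.1 (adjusted p = 1). Without the Y-linked control arrays they were 0.89 (adjusted p = 0.146) and 0.6 (adjusted p = 0.149).

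In the proximal maxilla the groups did not overlap for 2 of 9 members, against 25.3% of all genes. Inhbb gave 1.48 (SE 0.48, adjusted p = 0.0674), with all arrays labelled knockout above the controls, and passed without array 3 of that group (1.84, adjusted p = 0.0152) or array 3 of the control distal mandible (1.48, adjusted p = 0.0341). Without array 1 of the group labelled knockout it was 1.18, the lowest of the 24 fits that each left out an array. The other Inhbb probe set gave 0.17 (adjusted p = 0.286). Inhbb gave 1.67 (adjusted p = 0.0697) without the 7 arrays closer to the other end and 1.52 (adjusted p = 0.158) without the Y-linked control arrays. Tgfb2 gave -0.26 (SE 0.15, adjusted p = 0.291). Inhba gave -0.48 (SE 0.35, adjusted p = 0.41), and -0.62 (adjusted p = 0.0459) without the 7 arrays closer to the other end. Skeletal muscle markers had a median difference of 3.17 in this region, with 15 of 15 positive and 4 passing, epithelial markers one of -1.63, with 7 of 10 lower, and neuron markers one of 2.39, with 6 of 10 higher. The part of these tissues in the Inhbb and Inhba values was not tested.

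The difference of the genotype effect between the jaws or between the ends passed for none of 18 member tests, with 0.0336% and 0.00672% of all genes passing. At an unadjusted p under 0.05 the counts were 0 members and 985 genes (6.62%) for the jaws and 2 members and 639 genes (4.29%) for the ends. For the ends, distal minus proximal was 0.55 for Ltbp4 (SE 0.21) and 0.44 for Tgfb2 (SE 0.15), both with an adjusted p of 1.

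**Figure D3:**
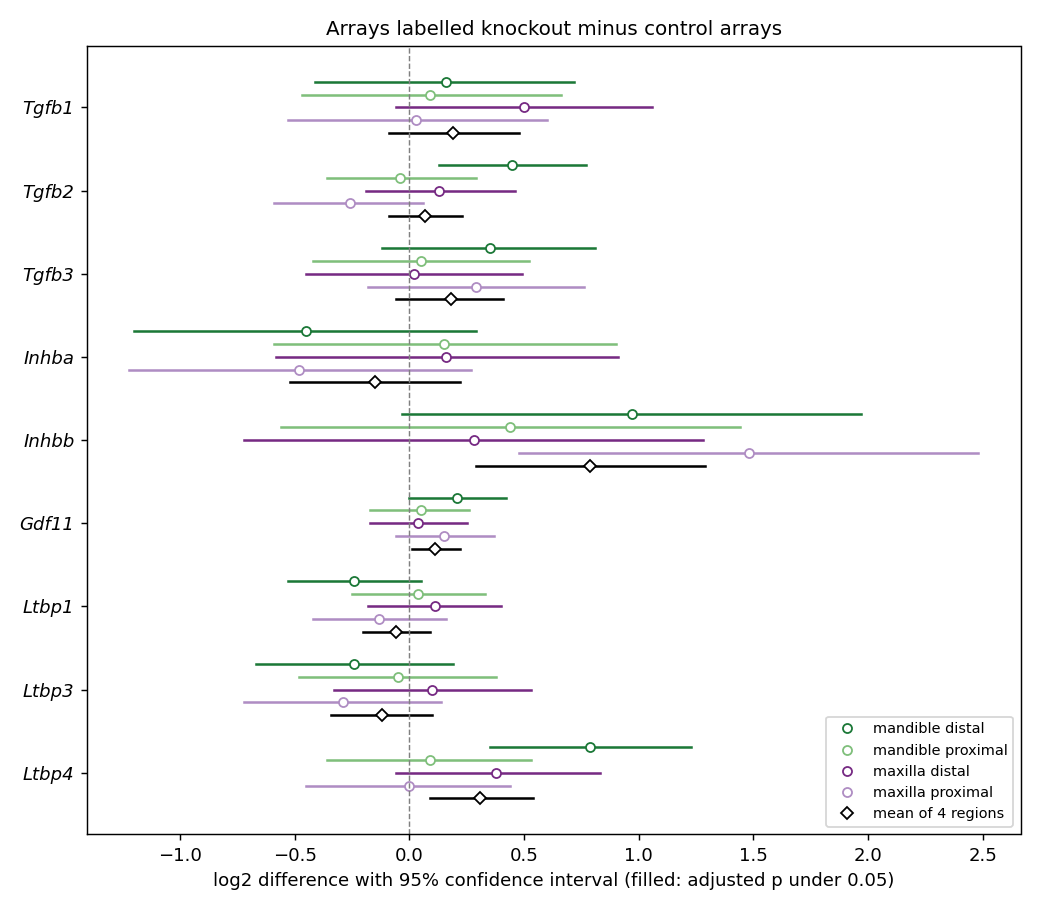
Log2 difference of arrays labelled knockout minus control arrays (horizontal axis) for the 9 genes, with 95% confidence intervals, in each of the 4 regions and as their mean (black diamonds). All symbols are open because none passed, and the Inhbb interval of the mean, 0.29 to 1.29, lies farthest to the right.

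The second comparison asks which members differ between the lower and the upper jaw. Inhbb and Ltbp1 were higher in the mandible as a mean of the 4 jaw comparisons, which is 2 of 9 members against 46.6% of all genes tested. Inhbb was higher by 1 log2 unit, or 2-fold (SE 0.24, adjusted p = 0.00245), and Ltbp1 by 0.33, or 1.26-fold (SE 0.069, adjusted p = 0.000809). Leaving out any 1 array kept both calls (24 of 24 fits), from 0.9 to 1.16 for Inhbb and from 0.29 to 0.36 for Ltbp1. Without the 7 arrays closer to the other end of their jaw they were 0.9 (adjusted p = 0.0411) and 0.37 (adjusted p = 0.00937), and without the Y-linked control arrays 0.9 (adjusted p = 0.0219) and 0.35 (adjusted p = 0.00509). Inhba gave -0.4 (SE 0.18, adjusted p = 0.0694) and Ltbp3 -0.2 (SE 0.1, adjusted p = 0.116). Inhba passed at -0.45 (adjusted p = 0.0267) without the 4 arrays numbered 1 that stood apart, and at -0.3 (adjusted p = 0.0397) without all 7. It also passed in 5 of the 24 fits without 1 array, those without array 1 of the control distal maxilla, 2 of the control proximal maxilla, and, among arrays labelled knockout, 1 of the proximal mandible and 1 or 2 of the proximal maxilla (-0.49 to -0.45). Ltbp3 passed without array 1 of the distal mandible (-0.26) or array 2 of the proximal maxilla (-0.25), both labelled knockout.

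Other probe sets of these genes differed in how far they moved. The second Inhbb probe set ran only from 6.77 to 7.29 and gave 0.14 (SE 0.049, adjusted p = 0.0249), with r = 0.78 to the chosen one over 24 arrays. The other Ltbp1 probe sets gave 0.21 (adjusted p = 0.164) and -0.05 (adjusted p = 0.562), so the Ltbp1 call rested on 1 of 3 probe sets. With the mean of all probe sets the Ltbp1 call was lost (0.16, adjusted p = 0.078) and Ltbp3 passed (-0.3, adjusted p = 0.0205). For Ltbp3, 1 of the 3 other probe sets passed, at -0.59 (SE 0.16, adjusted p = 0.00499), and the remaining ones gave -0.19 and -0.23. The second Inhba probe set was above background on 0 arrays. For Tgfb1, the second probe set, above background on 2 arrays, gave 0.12 (adjusted p = 0.0379).

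In single comparisons of the jaws, 2 of 36 member tests passed, where 7.88% (distal ends labelled knockout), 12.7% (proximal ends labelled knockout) and 14% to 14.5% (controls) of all genes did. Ltbp1 was higher in the control distal mandible by 0.54 (SE 0.14, adjusted p = 0.0149; 14% of all genes passed), and the groups did not overlap. It gave 0.21 in controls proximally, 0.19 distally and 0.38 (adjusted p = 0.0774) proximally in the arrays labelled knockout. Inhbb was higher in the control proximal mandible by 1.56, or 2.95-fold (SE 0.48, adjusted p = 0.0355; 14.5% of all genes passed). It gave 0.61 in controls distally, 1.3 (adjusted p = 0.0973) distally and 0.52 proximally in the arrays labelled knockout. Both calls were lost under some settings, and no other probe set passed. The other Inhbb probe set gave 0.12 (adjusted p = 0.439) in the control proximal ends. The other Ltbp1 probe sets gave 0.52 (adjusted p = 0.162) and 0.14 (adjusted p = 0.523) in the control distal ends. The Inhbb call was lost without any of the 3 proximal mandible arrays (1.41 to 1.64) or without array 1 (1.39, adjusted p = 0.151) or 2 (1.6) of the proximal maxilla, all of them controls. It was also lost without the 4 arrays numbered 1 that stood apart (1.39, adjusted p = 0.129), all 7 arrays closer to the other end (1.39, adjusted p = 0.135) or the 4 arrays with Y-linked signal (1.67, adjusted p = 0.126). The Ltbp1 call was lost without control distal mandible array 1 (0.46) or 2 (0.49) or control distal maxilla array 3 (0.46, adjusted p = 0.0676). It was lost, too, without the Y-linked arrays (0.53, adjusted p = 0.118), with only the groups compared in the fit (0.54, adjusted p = 0.0518) and with the mean of all probe sets (0.4, adjusted p = 0.0821). Leaving out the 7 arrays leaves 1 array in the control distal maxilla, whose spread is taken to be that of the other groups, and the difference was then larger, 0.7 (adjusted p = 0.0686).

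Groups of the 2 jaws did not overlap for 3 of 9 members in the control distal ends (36.1% of all genes), 4 in the control proximal ends (45.6%), 2 in the distal ends labelled knockout (30%) and 1 in the proximal ends labelled knockout (26.2%). Besides the values above, these were Tgfb1 at 0.41 and Ltbp4 at -0.48 in the control distal ends. In the control proximal ends they were Inhba at -0.91 (adjusted p = 0.0926) and Ltbp3 at -0.29, and in the distal ends labelled knockout Inhba at -0.52. None of these passed.

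**Figure D4:**
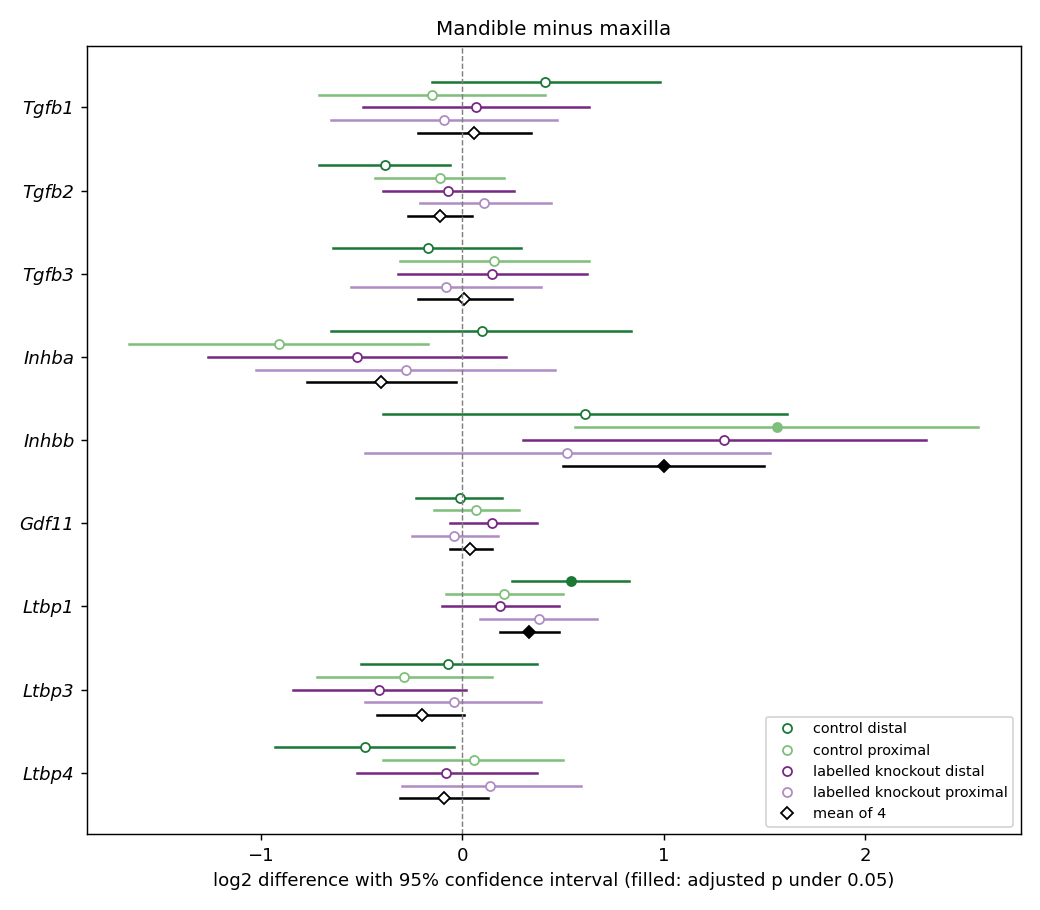
Log2 difference of mandible minus maxilla (horizontal axis) for the 9 genes, with 95% confidence intervals, in each genotype and end and as their mean (black diamonds); filled symbols passed an adjusted p of 0.05. Inhbb and Ltbp1 are filled for the mean, at 1 and 0.33, and Inhba lies to the left at -0.4 with an open symbol.

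The third comparison is between the ends of a jaw. No member passed as a mean of the 4 comparisons (0 of 9, against 3.86% of all genes). Tgfb3 came closest to passing, with -0.36 for distal minus proximal (SE 0.11, adjusted p = 0.0691), followed by Ltbp1 with 0.18 (SE 0.069, adjusted p = 0.106). Inhbb gave -0.52 (SE 0.24, adjusted p = 0.179), beside a median of -1.31 for the muscle markers, and Inhba gave 0.36 (SE 0.18, adjusted p = 0.204). At an unadjusted p under 0.05 there were 3 members, Tgfb3, Inhbb and Ltbp1 (26% of all genes). Tgfb3 passed without array 2 of the control distal mandible, 1 of the control distal maxilla, or, among arrays labelled knockout, 1 of the distal mandible, 1 of the distal maxilla or 3 of the proximal maxilla (-0.41 to -0.37), and Ltbp1 without the last of these (0.21, adjusted p = 0.0495). Without the 4 arrays numbered 1 that stood apart, Tgfb3 gave -0.49 (adjusted p = 0.0071) and Inhba 0.64 (adjusted p = 0.00944), and both passed. Without all 7 arrays closer to the other end, Tgfb3 gave -0.55 (adjusted p = 0.0112) and Inhba 0.72 (adjusted p = 0.00057). Without the Y-linked control arrays they were -0.36 (adjusted p = 0.185) and 0.23 (adjusted p = 0.556). Arrays were left out for their likeness to the other end over all genes, so this choice can itself widen differences between the ends.

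Within single jaws, none of 36 member tests of the ends passed, where 3.45% of all genes passed in the control mandible, 6.16% in the maxilla labelled knockout, and 0% in both the control maxilla and the mandible labelled knockout. At an unadjusted p under 0.05, limma gave 103 genes (0.692%) in the control maxilla and 72 (0.484%) in the mandible labelled knockout, with 0 members in each. The same count was 5 members in the control mandible (18.6% of all genes) and 1, Inhbb at -1.07, in the maxilla labelled knockout (27.2%). In the control mandible 4 of 9 members did not overlap between the ends (30.3% of all genes). Inhba gave 0.86 (SE 0.35, adjusted p = 0.195) and Ltbp1 0.36 (SE 0.14, adjusted p = 0.162). Ltbp4 gave -0.68 (SE 0.21, adjusted p = 0.0829) and Tgfb2 -0.45 (SE 0.15, adjusted p = 0.119). Tgfb2 passed without array 2 of the control distal mandible (-0.6, adjusted p = 0.0384) and Ltbp4 without array 1 of the distal mandible labelled knockout (-0.68, adjusted p = 0.045). In the control maxilla Tgfb1 alone did not overlap (-0.36, adjusted p = 1; 6.46% of all genes). The difference of the end effect between the jaws passed for 0 members and 0% of all genes, with 0 members and 814 genes (5.47%) at an unadjusted p under 0.05.

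Markers of other tissues moved with several members. Over the 24 arrays Inhbb followed the mean of 15 skeletal muscle markers, such as the myogenic regulators Myod1 and Myog, with Pearson r = 0.94 and Spearman rho = 0.93. The relation was r = 0.93 without the 2 arrays farthest from the median, 0.87 for deviations from group means, 0.91 within the 12 controls and 0.96 within the 12 arrays labelled knockout. Other lists were related to Inhbb as well, though less closely. They were smooth muscle (r = 0.84), macrophage (0.78), endothelium (0.66), epithelium (-0.65) and eye and forebrain (-0.64) markers, among others. These are descriptions over arrays that share regions, so no p is given. Of the 15 muscle markers, 14 were higher in the mandible as a mean of the jaw comparisons (median 2.65), and 15 in the control proximal ends (median 4.21). Their summed linear signal ran from 38700 to 50600 in the control proximal mandible, from 1750 to 2880 in the control proximal maxilla and from 7650 to 55300 in the proximal maxilla labelled knockout. Each control array of the maxilla had 2 to 4 of the 15 markers below background, and each control array of the proximal mandible 0. The control distal mandible held both kinds of array, with summed signals from 1890 to 27500, and its array 3, the lowest of all in Inhbb, had 4 markers below background. How much of the Inhbb difference lies in muscle was not tested.

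Inhba went the other way, with r = 0.72 to 10 epithelial markers such as Krt5 and Epcam (rho 0.73, 0.74 for deviations from group means) and r = -0.67 to skeletal muscle. Macrophage (-0.7) and glia (-0.65) markers were opposed to Inhba as well. For deviations from group means, its r was -0.87 for glia, 0.75 for mesenchyme and 0.73 for bone markers. Epithelial summed signal ran from 4220 to 9800 in the control proximal mandible and from 22500 to 24300 in the control proximal maxilla, and 6 of 10 markers were lower in the mandible as a mean of the jaw comparisons. Inhba and Inhbb were themselves opposed, with r = -0.7 over the 24 arrays.

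**Figure D5:**
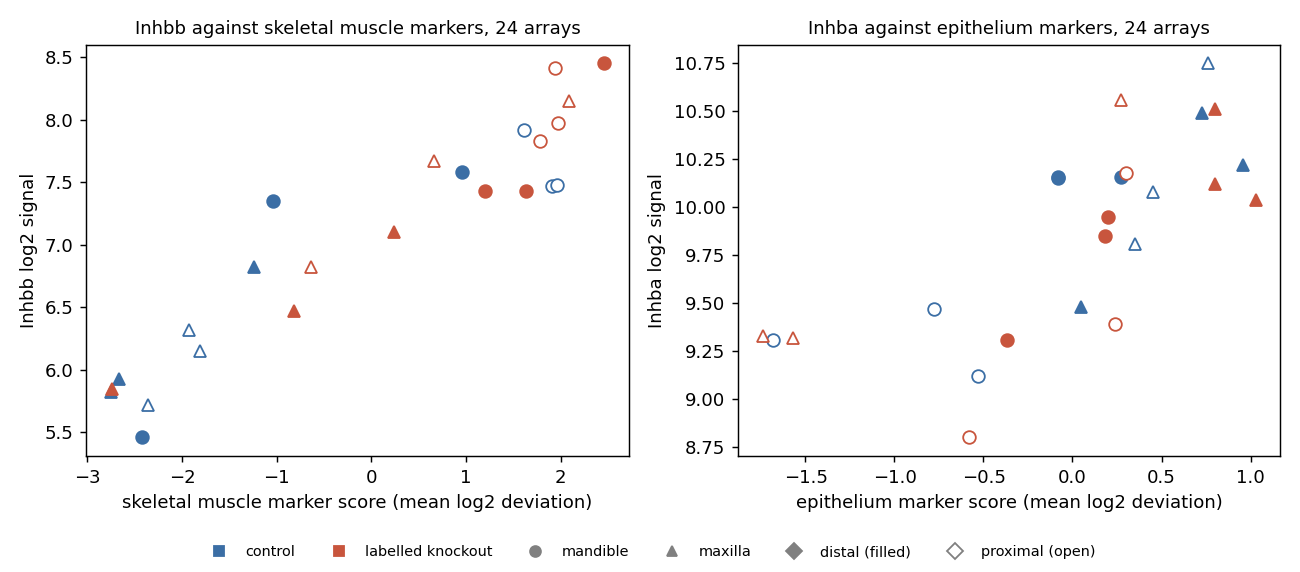
Left, Inhbb log2 signal (vertical) against the skeletal muscle score (horizontal, the mean log2 deviation of 15 markers) on the 24 arrays; right, Inhba against the epithelium score of 10 markers. Colour gives genotype, shape the jaw and filling the end, and both clouds rise from left to right, with r = 0.94 and r = 0.72.

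Tgfb3 correlated with 10 macrophage markers such as Csf1r (r = 0.79, rho 0.79) and with smooth muscle markers (r = 0.79). Glia (0.78), mesenchyme (-0.77) and skeletal muscle (0.67) markers were also related to it, so the relation was not particular to 1 list. For deviations from group means, r was 0.85 for skeletal muscle, 0.83 for smooth muscle and 0.75 for macrophage markers. In the mean of the end comparisons the 10 macrophage markers had a median of -0.36, with 0 positive and 0 passing. Ltbp4 ran against erythroid markers (r = -0.74), which had a median of -0.23 for the genotype comparison with 6 of 6 tested markers negative and none passing. Ltbp1 followed the 3 tested bone markers (r = 0.69) and mandibular arch markers (r = 0.68). The latter relation, however, was -0.03 for deviations from group means, so it lay between the groups. For Tgfb2 the nearest list was cartilage (r = 0.6), for Ltbp3 also cartilage (0.53), for Gdf11 smooth muscle (0.63) and for Tgfb1 bone (0.46). The part of these cells in the values of the members was not tested. Among the members themselves, the strongest positive correlations were Tgfb3 with Inhbb (0.67) and Gdf11 with Inhbb (0.58).

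The genes most like Inhbb among all those tested were Myog (r = 0.95), Acta2 (0.94) and Ttn (0.94), that is a muscle regulator, an actin and titin, the spring of the sarcomere. Those most like Ltbp1 were Antxr1 (0.92), Stard5 (0.91) and Dsc3 (0.89). Tgfb3 was nearest to Tmem176b (0.92), Nod1 (0.91) and Rras (0.91), and Inhba to Unc5b (0.89), Sorbs3 (0.88) and Ptger2 (0.87). The nearest genes were Sfrp1 (0.84), Wfs1 (0.81) and Syndig1 (0.81) for Tgfb2, and Gm9899 (0.84), Sh3pxd2a (0.83) and Col14a1 (0.82) for Ltbp4. For Ltbp3 they were Fam120a (0.83), Scara3 (0.78) and Scpep1 (0.76), for Gdf11 Allc (0.82), Cd300c2 (0.82) and Ctsw (0.79), and for Tgfb1 Kcnip3 (0.78), Prrg3 (0.76) and Itga5 (0.75). With the 8 group means in place of the arrays, the leading genes were Nptn, Mtarc2 and Armcx1 for Inhbb and Thy1, Cluap1 and Stard5 for Ltbp1, each at 0.99.

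The rest of the pathway was read from lists of receptors, Smads, activators, antagonists and targets. In the genotype comparison over the 4 regions none of their genes passed in any list. In the proximal maxilla the signal transducer Smad3 (-0.36, adjusted p = 0.0394), the repressor Tgif1 (-0.45, adjusted p = 0.0455) and the propeptide convertase Pcsk5 (-0.89, adjusted p = 0.0263) were lower in the arrays labelled knockout. The fourth LTBP gene, Ltbp2, whose product does not bind latent TGF-beta, was higher there by 1 (adjusted p = 0.0393).

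Between the jaws, 2 of 8 receptor genes were higher in the mandible and 4 lower. Tgfbr2 (0.43) and the co-receptor Tgfbr3 (0.36) were higher, while the activin receptors Acvr1b (-0.37), Acvr2a (-0.38) and Acvr2b (-0.44) were lower, as was the endothelial co-receptor Eng (-0.24). Of 9 Smad and regulator genes 2 were higher and 2 lower, with Smad2 at 0.48. Of 20 tested genes of release and anchoring 3 were higher and 4 lower, with the gelatinase Mmp9 at 1.46, thrombospondin Thbs1 at 0.49, Ltbp2 at -0.52 and the protease Plat at -0.42. Of 10 tested antagonist genes 4 were higher and 0 lower, led by the small proteoglycans Dcn (1.39) and Fmod (0.67), with Wfikkn2 (0.42), whose product binds GDF11 and myostatin. Of 22 target genes 6 were higher, with the smooth muscle actin Acta2 at 1.9, Timp3 at 0.51 and Postn at 0.43, and 2 lower, with the feedback inhibitor Pmepa1 at -0.36. Acta2 is also expressed by developing skeletal muscle. These counts stand beside the 46.6% of all genes that passed in that comparison. Between the ends, Pcsk5 (0.49) and the integrin Itgav (0.24) were higher distally. They were the only genes of the 5 lists to pass as a mean of the 4 comparisons, where 3.86% of all genes tested passed.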

How the data were processed

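The deposited table holds 45101 probe sets on 24 arrays as log2 signal. The authors made these log2 values with RMA, according to the labels and per the submitters' processing notes, with no version stated. Values ran from 2.97 to 14.7 and array medians from 7.26 to 7.38. No further normalisation was applied. Probe sets with 1 gene symbol (34945) were kept, 932 with several, 9160 with none and 64 controls were left out. A gene was tested if above its array's 30th percentile in at least 3 arrays. Limma 3.58.1 (R 4.3.3) fitted 8 group means to all arrays (16 residual degrees of freedom), with its two-sided moderated test and Benjamini-Hochberg adjustment over 14879 genes per comparison; passing means an adjusted p under 0.05. The fit was tested on simulated data. Positive differences are higher in the first group named. A marker score is the mean deviation of the list's genes from their 24-array means. Promoter sequences are from RefSeq.

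Members, lists, tests and most alternatives were chosen with earlier results of these data known. The text names all 9 members, Tgfbr2, up to 4 passing genes of each pathway list by largest change and, for each member, the 3 genes most like it over 24 arrays and over 8 group means (only the latter of Inhbb and Ltbp1 are printed); further list genes that passed were named after their values were seen. Some genes of the pathway lists were not analysed here. No array was a copy of another (root mean square difference at least 0.166). Deviations from group means of arrays with the same genotype and number had a median correlation of 0.15 (-0.65 to 0.54, 36 pairs). For arrays of the same genotype but another number and region it was -0.11 (-0.6 to 0.57, 72 pairs). Y-linked signal was found in the control arrays numbered 2 and in no others, so arrays with the same number may be linked. Because the labels do not say so, the main fit used no pairing and treated all arrays as independent. Calls with replicate blocks are given below. Alternatives were array weights, replicate blocks, other probe sets, fewer groups and arrays left out, among others.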

Additional observations from a re-analysis of the deposited data

How the results depend on the processing

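Counts of members that passed were set against 14 other settings and 24 fits that each left out 1 array; leaving out the 7 arrays closer to the other end of their jaw was chosen after seeing the data. Tests of the genotype effect between jaws or ends stayed at 0 throughout. For the genotype mean the count went from 0 to 1 with array weights and with the array number as a fixed replicate block (Inhbb, 0.74 with adjusted p = 0.00736 and 0.79 with adjusted p = 0.0376), and from 0 to 1 over the fits without 1 array. For single regions it went from 0 to 3 with weights, 1 with the fixed block and 1 without the 7 arrays (0 to 2 without 1 array). For the jaw mean it went from 2 to 4 without arrays 1 and 2 of the proximal maxilla labelled knockout (Inhba -0.61 and Ltbp3 -0.29 added; 2 to 4 without 1 array). It went to 3 with weights, without the 4 and without the 7 arrays (Inhba added) and with the fixed block (Ltbp3 added, -0.2, adjusted p = 0.0272). With the mean of all probe sets it stayed at 2, with Ltbp3 in place of Ltbp1. For single jaw comparisons it went from 2 to 6 with weights, to 1 with the mean of all probe sets, 1 without the 4 arrays numbered 1 that stood apart, 1 without the 7, and 0 once the 4 Y-positive control arrays were dropped (1 to 4 without 1 array), and stayed at 2 with only the groups compared, with Inhba in place of Ltbp1. For the end mean it went from 0 to 4 with weights, 1 with the fixed and 1 with the random replicate block (Tgfb3 in both), 2 without the 4 arrays and 2 without the 7 (0 to 2 without 1 array). For single end comparisons it went from 0 to 6 with weights, 2 with only the groups compared, 1 with the fixed and 1 with the random block (Ltbp4 in both), 1 without the 4 arrays and 3 without the 7 (0 to 1 without 1 array). The labels do not say that numbers pair arrays, and the random block correlation was 0.158.

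Signs turned for Inhba in the genotype mean, to 0.05 without arrays 1 and 2 of the proximal maxilla labelled knockout and to 0.04 with its background probe set. They also turned for Ltbp3 (0.04 with another probe set) and for Ltbp1 in the jaw mean (-0.05 with another probe set). The cause was not tested. With 3 arrays a group, their number limits the precision.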
